A study of Mus musculus with 4 samples.

Results

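The genes described here encode the nuclear subunits of the oxidative phosphorylation system, measured in mouse pancreatic islets treated with a glucokinase activator. They were chosen by name alone, as every gene whose symbol on the array begins as the subunit genes of complexes I to V do, together with Cyc1 and Cycs. This gave 91 gene names on 122 probes, of 26265 named genes on 33697 probes. Both groups were cultured islets isolated from C57BL/6 mice aged 8 weeks, kept for 24 h in RPMI1640 with 5.6 mM glucose. The GKA group (2 samples) received 30 µM of the activator, called GKA in the labels, and the vehicle group (2 samples) received DMSO. Each sample of total RNA was labelled with Cy3 and hybridised to its own Agilent 1-colour array. Nothing in the labels states that samples with the same treatment were separate cultures or animals, and the p-values therefore rest on a spread that may be technical.

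Oxidative phosphorylation makes most of the ATP of a beta cell. Complex I oxidises NADH and complex II oxidises succinate, both pass electrons to ubiquinone, complex III hands them to cytochrome c, and complex IV passes them to oxygen, while complexes I, III and IV pump protons that drive the ATP synthase, complex V. In beta cells glucokinase sets the rate at which glucose enters glycolysis, and the ATP made from it closes potassium channels and starts insulin secretion. A glucokinase activator raises the activity of that enzyme, so the respiratory chain lies downstream of the drug's target.

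Of the 91 genes, 88 had a probe well above background and were tested. All 88 were well above background on all 4 arrays, so none entered the test through 1 group alone. The 3 genes left out were Cox7b2, Cox8b and Cox8c, which encode tissue-restricted forms of complex IV subunits. Cox7b2 was above background on 1 of the 2 GKA arrays and on 0 of the 2 vehicle arrays, and Cox8b and Cox8c on none. The names were assigned to their complexes by known function: 36 of the tested genes belong to complex I, 4 to complex II, 8 to complex III, 17 to complex IV and 15 to complex V. Cycs, the mobile carrier cytochrome c, stands alone. The other 7 names were caught by the pattern but are not subunits: the complex I assembly factors Ndufaf1, Ndufaf2, Ndufaf3 and Ndufaf4, and Cox4nb, Atp5s and Atp5sl, whose current symbols are Emc8, Dmac2l and Dmac2. Ndufa4 and Ndufa4l2 are counted with complex IV, where the Ndufa4 protein resides.

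Promoters of 3 genes are shown for what the results turn on: Cycs and Cox7a2l are the members that rose and fell the most among those that passed the test, and Ndufa5 is an example, chosen after its values were seen, of a member with the site of NRF-1, a transcription factor known to drive many respiratory genes. Each run holds the 250 bases before the transcription start in RefSeq, written 5′ to 3′ on the gene's strand. Capitals mark TGACGTCA, the full cyclic AMP response element, in Cycs, 169 bases before the start. They also mark the NRF-1 core in Ndufa5, 26 bases before the start used here. RefSeq gives 2 starts for Ndufa5, and the same core lies 190 bases before the other. The core was searched as the letters in capitals there, with any base in the sixth place. No letters of Cox7a2l are in capitals because none of the 4 searched motifs matched.
Cycs promoter, GRCm38.p6, chr6:50566570-50566819, minus strand: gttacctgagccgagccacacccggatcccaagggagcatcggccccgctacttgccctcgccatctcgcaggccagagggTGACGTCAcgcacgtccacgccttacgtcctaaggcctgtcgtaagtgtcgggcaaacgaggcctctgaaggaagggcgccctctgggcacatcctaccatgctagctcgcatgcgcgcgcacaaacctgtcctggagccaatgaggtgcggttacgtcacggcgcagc
Cox7a2l promoter, GRCm38.p6, chr17:83514334-83514583, minus strand: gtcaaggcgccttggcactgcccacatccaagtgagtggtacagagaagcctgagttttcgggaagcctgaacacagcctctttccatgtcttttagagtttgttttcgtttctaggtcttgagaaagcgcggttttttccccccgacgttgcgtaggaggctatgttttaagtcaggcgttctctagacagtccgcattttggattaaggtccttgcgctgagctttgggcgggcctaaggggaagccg
Ndufa5 promoter, GRCm38.p6, chr6:24527691-24527940, minus strand: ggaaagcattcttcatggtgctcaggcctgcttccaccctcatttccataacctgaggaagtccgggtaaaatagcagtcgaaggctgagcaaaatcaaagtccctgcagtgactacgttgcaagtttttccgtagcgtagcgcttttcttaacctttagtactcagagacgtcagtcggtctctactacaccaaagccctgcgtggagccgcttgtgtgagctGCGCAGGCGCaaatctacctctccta

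A promoter in RefSeq was found for 72 of the 88 genes and was searched on both strands, beside the same window of 27025 genes. The NRF-1 core was present in 14 of the 72, or 19.4%, against 4.23% of the 27025 genes. The core of the ETS family, CCGGAAG, to which NRF-2 (GABP) belongs, was in 13, or 18.1%, against 7.83%. The cyclic AMP response element was in 5, or 6.94%, against 1.77%, and the oestrogen-related receptor site TCAAGGTCA in 1, or 1.39%, against 0.422%. A match of letters is a description of the promoter and does not show binding. The median log2 difference between GKA and vehicle was -0.19 over the 14 genes with the NRF-1 core and 0.01 over the 58 without it, and 0.06 over the 13 with the ETS core and -0.07 over the 59 without it. Over the 5 genes with the cyclic AMP response element it was 0.0013, against -0.03 over the 67 without it. Beside Cycs, at 0.70, these were Uqcrfs1 at 0.13, Ndufa11 at 0.0013, Ndufb2 at -0.12 and Ndufa10 at -0.46.

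The first comparison asked which of these genes differed between GKA and vehicle islets. Levels are given as log2 of the probe's processed intensity minus the 75th percentile of its array, so a level of 0 is a probe at that percentile. They compare arrays for 1 probe and not probes with each other. Differences are GKA minus vehicle on this log2 scale, tested with limma in a fit over all 17178 tested genes, with Benjamini-Hochberg adjustment over all of them and a threshold of 0.05. Cycs, Ndufc2 and Ndufa1 rose with GKA, and Cox7a2l fell. The other 84 genes did not pass the test. The 4 called members are 4.55% of the 88, where the background was 17.1% of all tested genes called, 9.11% higher in GKA and 8.01% lower. At an unadjusted p under 0.05 there were 19 members, against 6208 of all 17178 genes.

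The members' differences were small as a group. Their median was -0.02, with quartiles of -0.15 and 0.13, where the median of all genes was -0.01 with quartiles of -0.27 and 0.25. Of the members, 80 of 88 (90.9%) differed by less than 0.5, against 76.0% of all genes, and 1 (1.14%) by more than 1, against 6.29%. The median standard error was 0.13 for the members and for all genes, but the fit draws the errors of all genes toward a common value. The members' probes were brighter, with a median level of 4.68, against -0.33 for all genes. No comparison was made with genes of like signal. For 85 members the 95% interval of the difference lay within -1 and 1, so a change of 2-fold or more was outside it; this held for 96.6% of members and 80.5% of all genes. Both GKA arrays lay above both vehicle arrays for 20 members and below them for 25, and the groups overlapped for 43. Over all genes the arrays of the 2 groups did not overlap for 65.9%, with GKA above for 32.4% and below for 33.5%.

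**Figure D1:**
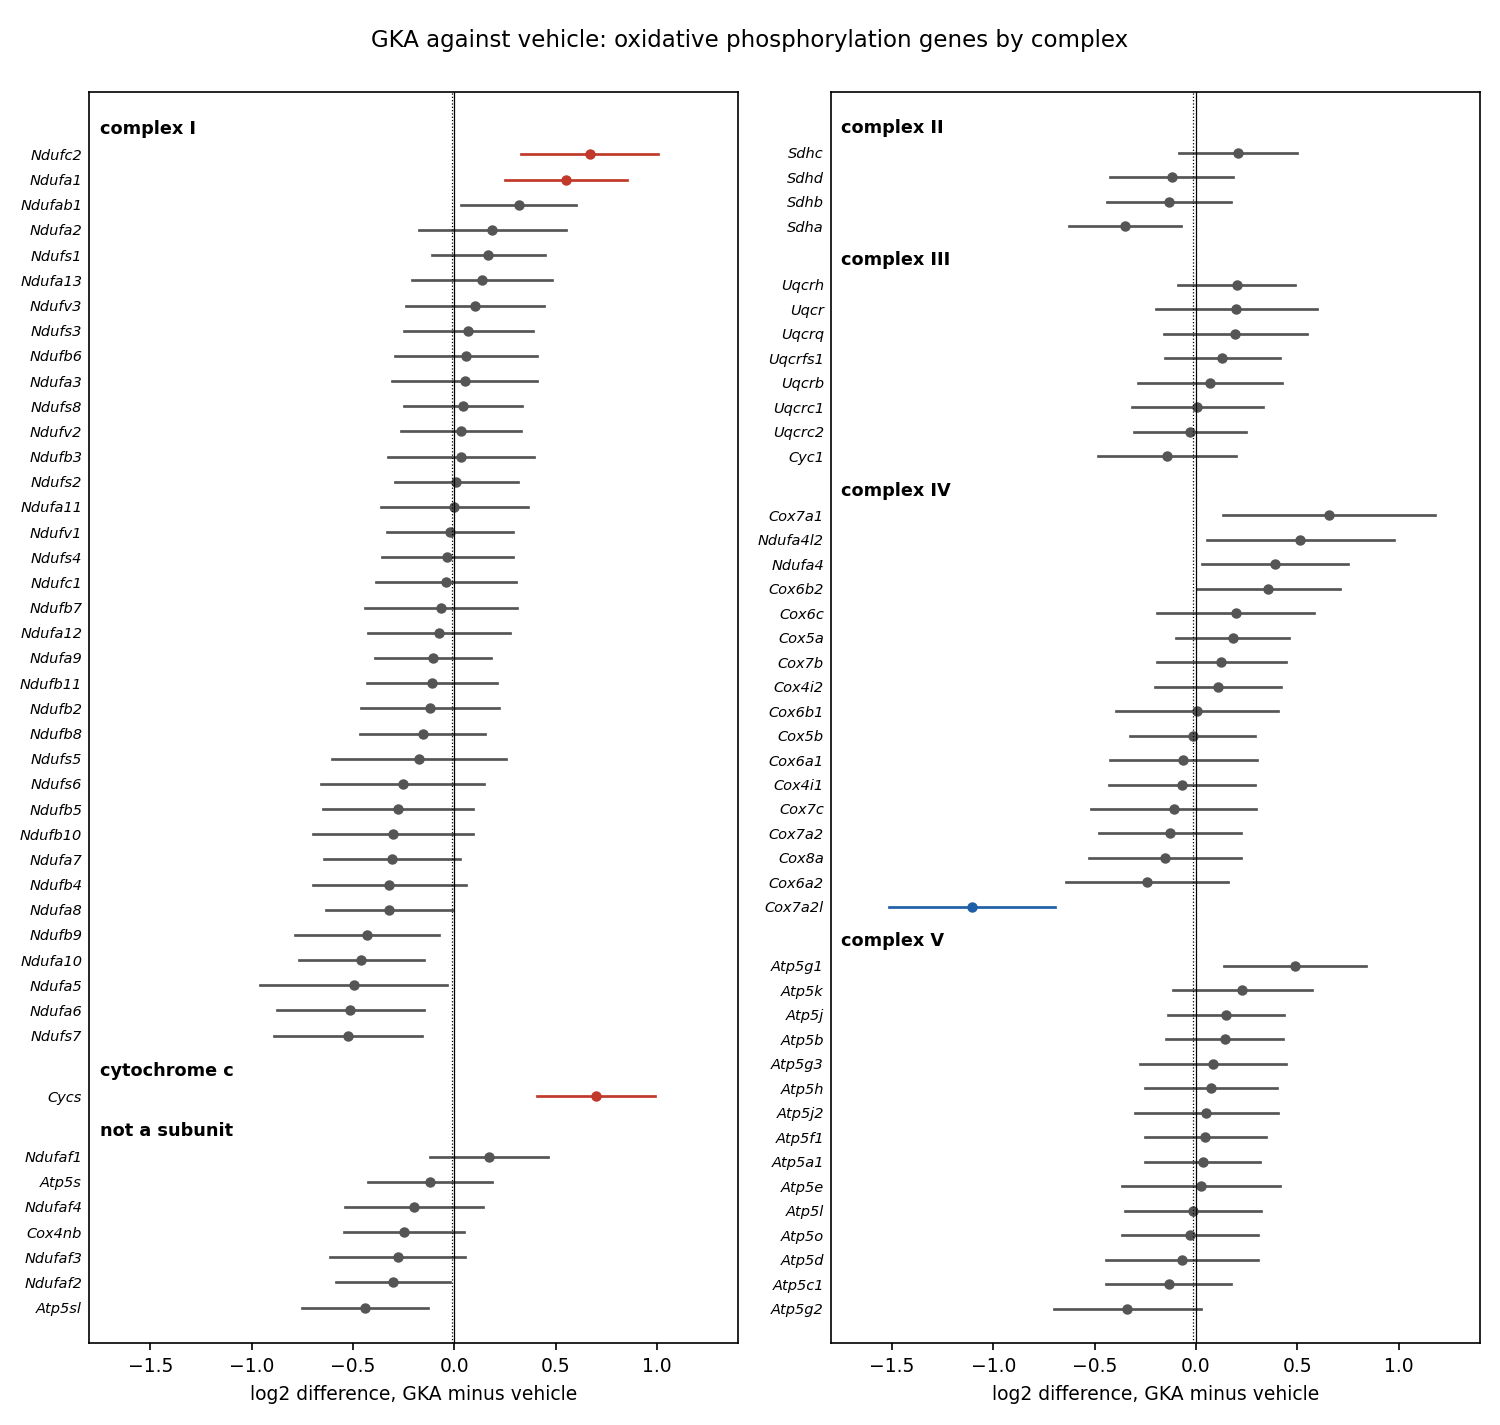
Log2 difference between GKA and vehicle islets (x axis) for each of the 88 tested genes (rows), grouped by respiratory complex. Points are differences and bars 95% intervals from the limma fit of 2 arrays per group; red marks the 3 genes that rose, blue the 1 that fell, grey the 84 that did not pass, and the dotted line is the median of all 17178 genes. Most points lie within 0.5 of that line, and Cox7a2l, at -1.11, is the only one beyond 1.

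Complex I, the largest complex, had 2 genes that rose and none that fell, and 34 of its 36 genes did not pass. The share called was 5.56%, against 17.1% of all tested genes. Its median difference was -0.05, with 15 differences above 0 and 21 below. Both GKA arrays lay above both vehicle arrays for 4 of its genes and below for 12. The groups thus did not overlap for 44.4% of the complex, against 65.9% of all genes. Over all genes GKA lay above for 32.4% and below for 33.5%. Ndufc2, an accessory subunit of the membrane arm, had levels of 5.56 and 5.31 in GKA islets, against 4.75 and 4.78 in vehicle islets. Both GKA arrays lay above both vehicle arrays, and the difference was 0.67 ± 0.13 (SE, n = 2 each), or 1.59-fold, with an adjusted p of 0.0318. Ndufa1, a small subunit of the same arm needed for assembly, had 5.80 and 5.67 in GKA islets, against 5.22 and 5.14 in vehicle islets. Its groups did not overlap either, with a difference of 0.55 ± 0.12 (SE, n = 2 each), or 1.47-fold, and an adjusted p of 0.0374 in limma. Neither gene passed when any 1 of the 4 arrays was left out: the limma adjusted p was then between 0.0535 and 0.124 for Ndufc2 and between 0.0773 and 0.15 for Ndufa1. Without scaling between arrays the differences were 0.28 for Ndufc2 and 0.17 for Ndufa1, with spike-in scaling they were 0.073 and -0.044, and neither gene passed under either setting.

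At the other end of complex I stood Ndufs7, a core subunit that holds the last iron-sulphur cluster before ubiquinone. Its levels were 4.76 and 4.46 in GKA islets, against 5.15 and 5.12 in vehicle islets. Both GKA arrays were the lower ones, and the difference of -0.52 ± 0.14 (SE, n = 2 each) had a limma adjusted p of 0.0639 and did not pass. It passed under median scaling, normexp correction, a filter on all arrays or an intensity trend, and with spike-in scaling or none. Each of these settings called more of all genes than the 17.1% given above. The share of all genes called lower was 44.6% without scaling and 39.6% with spike-in scaling. Next by size came Ndufa6, at -0.51, Ndufa5, at -0.50, and Ndufa10, at -0.46, all accessory subunits with adjusted p values of 0.0657, 0.12 and 0.0591. The 7 nuclear core subunits, which carry the redox centres, had a median difference of 0.03, and the 29 other subunits one of -0.11. The 10 Ndufb genes, whose products sit in the membrane arm, had a median of -0.14, with 2 differences above 0. None of the 10 passed by the probe that represents the gene. The members of complex I with the brightest probes were Ndufa13, with levels of 6.90 and 6.65 in GKA islets and 6.68 and 6.59 in vehicle islets, and Ndufv3, with 6.88 and 6.63 in GKA islets and 6.63 and 6.68 in vehicle islets. In both genes the groups overlapped, and the differences were 0.14 and 0.10.

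Complex II, which is also the succinate dehydrogenase of the citric acid cycle, had no gene that passed among its 4. Its median difference was -0.13. Of all tested genes 17.1% were called. Sdha, the flavoprotein that oxidises succinate, had 3.60 and 3.56 in GKA islets, against 3.94 and 3.92 in vehicle islets. The groups did not overlap, and the difference was -0.35 ± 0.11 (SE, n = 2 each) with a limma adjusted p of 0.0858. It passed with either normexp setting, an intensity trend, spike-in scaling or no scaling. Without scaling 44.6% of all genes were called lower, and with spike-in scaling 39.6%. Sdhb, the iron-sulphur subunit, had 5.23 and 5.13 in GKA islets, against 5.39 and 5.25 in vehicle islets. The membrane anchors differed in sign. Sdhc had 3.12 and 3.06 in GKA islets, against 2.93 and 2.83 in vehicle islets, a difference of 0.21. Sdhd had 3.79 and 3.90 in GKA islets, against 4.02 and 3.90 in vehicle islets, a difference of -0.12. Its higher GKA array lay level with the lower vehicle array at 2 decimals.

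Complex III had no gene that passed, where 17.1% of all tested genes were called. Its median difference was 0.10, with 6 of 8 differences above 0. Uqcrh, the acidic hinge protein that helps cytochrome c dock, had 5.66 and 5.55 in GKA islets, against 5.42 and 5.39 in vehicle islets. Uqcrq, a small subunit next to cytochrome b, had 7.06 and 6.81 in GKA islets, against 6.81 and 6.68 in vehicle islets. In both genes GKA lay above vehicle, by 0.20 and 0.19, with limma adjusted p values of 0.266 and 0.368. For Uqcrq the lower GKA array lay level with the higher vehicle array at 2 decimals. Cyc1, cytochrome c1, had 4.01 and 3.92 in GKA islets, against 4.23 and 3.99 in vehicle islets. Its groups overlapped, and the difference was -0.14.

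Cycs, which encodes the cytochrome c that shuttles electrons from complex III to complex IV and that triggers apoptosis when it leaves the mitochondrion, rose. Its levels were 4.78 and 4.68 in GKA islets, against 4.06 and 4.0 in vehicle islets. The arrays of a group lay within 0.1 of each other and the groups were far apart, with a difference of 0.70 ± 0.11 (SE, n = 2 each), a 95% interval of 0.41 to 0.99, a 1.62-fold change and an adjusted p of 0.0206 in limma. A separate probe of the gene differed by 0.72, and the remaining one was not well above background. Without GKA replicate 1 the limma adjusted p was 0.0974 and without GKA replicate 2 it was 0.0838, with differences of 0.65 and 0.75. Without scaling between arrays the difference was 0.32, with spike-in scaling it was 0.10, and neither passed.

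**Figure D2:**
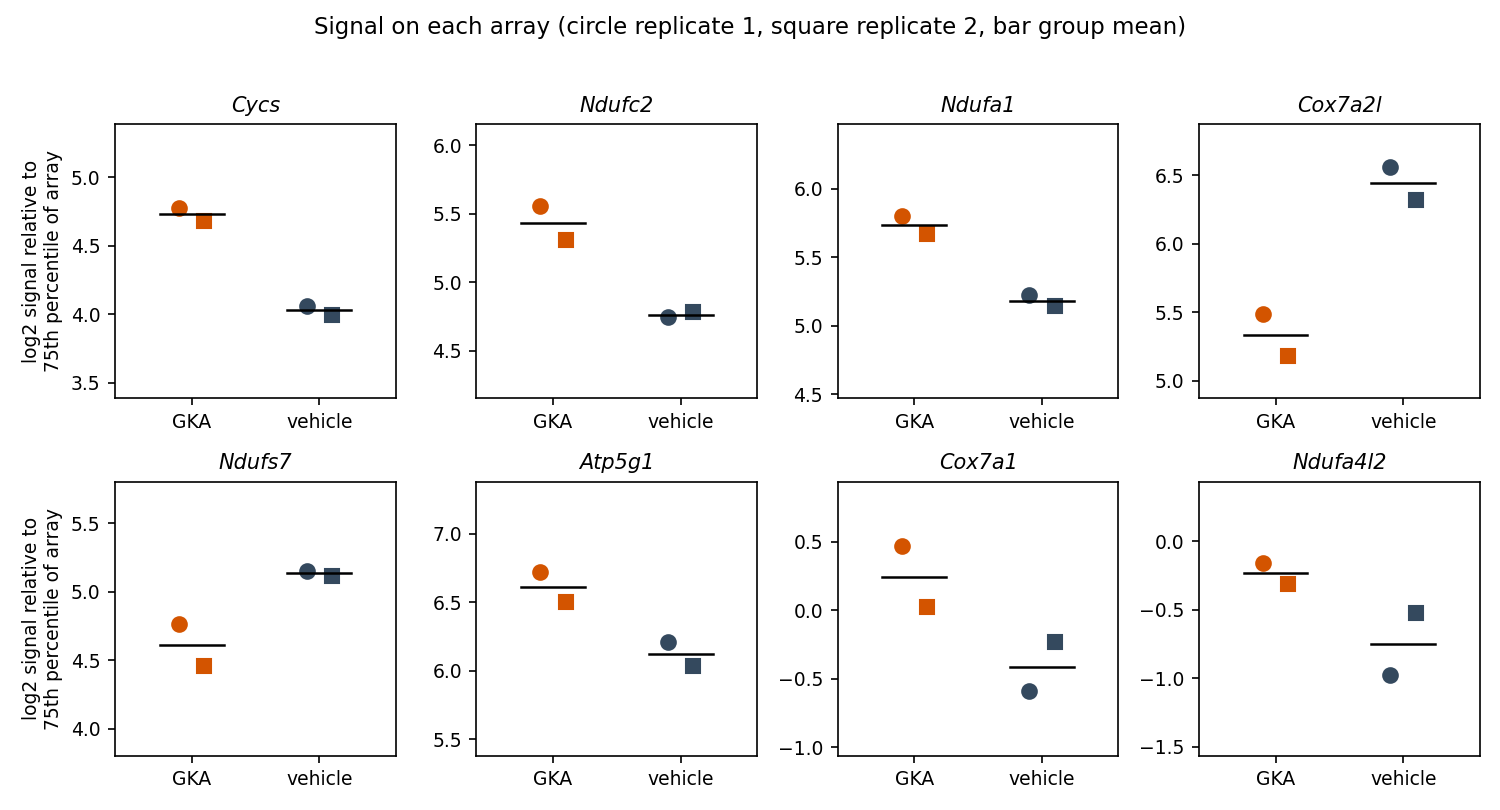
Level on each array (y axis, log2 of the processed intensity relative to the array's 75th percentile) for 8 genes, with GKA on the left and vehicle on the right of each panel. Circles are replicate 1, squares replicate 2 and bars group means, and each y axis spans 2 log2 units. In Cycs, Ndufc2, Ndufa1 and Cox7a2l, the genes that passed, the groups lie well apart, while in Cox7a1 and in the vehicle arrays of Ndufa4l2 the replicates lie farther from each other.

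Complex IV held the gene with the largest difference of all members. Cox7a2l, also known as SCAFI, is related to the Cox7a subunits and joins complex III to complex IV in supercomplexes; C57BL/6 mice are known to carry a shortened form of the protein. It had 5.49 and 5.18 in GKA islets, against 6.56 and 6.32 in vehicle islets. Both GKA arrays lay about 1 unit below the vehicle arrays, and Cox7a2l fell by 1.11 ± 0.16 on the log2 scale (SE, n = 2 each), to 0.465 of the vehicle level, with a 95% interval of -1.52 to -0.69 and a limma adjusted p of 0.0166. The probe lies on chromosome 17 at 83901272 to 83901331 of build mm9. All 3 probes of the gene were kept, and they differed by -1.11, -1.08 and -1.01. The probes at -1.11 and -1.01 overlap in their genome positions, so they do not read separate parts of the transcript. Cox7a2l also passed without scaling between arrays, where 44.6% of all genes were called lower. Without GKA replicate 2 the difference was -0.95 and the limma adjusted p 0.0738.

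None of the other 16 genes counted with complex IV passed, so 5.88% of its 17 genes were called, against 17.1% of all tested genes. The median difference of the complex was 0.01. Several of its subunits exist as a common form and a form used in particular tissues. Cox7a1, the form of heart and skeletal muscle, had levels of 0.47 and 0.02 in GKA islets, against -0.59 and -0.23 in vehicle islets. The GKA arrays were the higher ones, though replicate 2 minus replicate 1 was -0.45 between them, and the difference of 0.66 ± 0.21 (SE, n = 2 each) had a limma adjusted p of 0.0871. It passed with either normexp setting and with an intensity trend. Its counterpart Cox7a2 had 4.62 and 4.36 in GKA islets, against 4.66 and 4.58 in vehicle islets, a difference of -0.13. Ndufa4l2, known as a target of hypoxia-inducible factor, had -0.16 and -0.31 in GKA islets, against -0.98 and -0.52 in vehicle islets. The GKA arrays were again the higher ones, by 0.51 ± 0.18 (SE, n = 2 each), with a limma adjusted p of 0.111, and the gene passed only with normexp correction and without vehicle replicate 2, where the difference was 0.74 with a limma adjusted p of 0.0353. Its counterpart Ndufa4 had 3.62 and 3.68 in GKA islets, against 3.12 and 3.41 in vehicle islets, a difference of 0.39 with an adjusted p of 0.117, and it passed only with normexp and the 75th percentile.

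The remaining isoform pairs differed less. Cox6b2, the testis form, had -1.49 and -1.72 in GKA islets, against -1.88 and -2.04 in vehicle islets, a difference of 0.36 with a limma adjusted p of 0.135. The common form Cox6b1 had 2.89 and 2.52 in GKA islets, against 2.70 and 2.70 in vehicle islets, a difference of 0.01. Cox6a2, the form of heart and skeletal muscle, had 3.64 and 3.44 in GKA islets, against 3.94 and 3.62 in vehicle islets. Its groups overlapped, at a difference of -0.24. The common form Cox6a1 had 7.76 and 7.49 in GKA islets, against 7.76 and 7.61 in vehicle islets, a difference of -0.06. Cox4i2, a form known from lung and low oxygen, had -1.70 and -1.74 in GKA islets, against -1.92 and -1.74 in vehicle islets, a difference of 0.11. Its counterpart Cox4i1 had 5.91 and 5.72 in GKA islets, against 6.00 and 5.77 in vehicle islets, and overlapped at -0.07. Cox8a, the common form of the subunit whose other forms were not above background, had 7.17 and 6.87 in GKA islets, against 7.25 and 7.10 in vehicle islets, a difference of -0.15. None of these pairs was tested for a difference between its forms.

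Because 3 of the isoforms are known from muscle or brown fat, the markers of those tissues were read beside them. Of 6 muscle markers, Ckm, Myh4, Myh6 and Tnnt3 were not well above background on both arrays of any group. Of the 2 that were tested, Acta1 had -3.13 and -3.26 in GKA islets, against -2.21 and -2.47 in vehicle islets, and fell by 0.86 on the log2 scale with a limma adjusted p of 0.0212. Myh7 did not pass. Ucp1, the defining gene of brown fat, was not kept, and Cidea rose by 0.87, with an adjusted p of 0.0389 in limma. Their part in the isoform values was not tested.

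Complex V had no gene that passed, where 17.1% of all tested genes were called. Its median difference was 0.05, with 10 of 15 differences above 0. The ring that turns as protons pass is encoded by Atp5g1, Atp5g2 and Atp5g3, which make the same mature protein from different precursors. Atp5g1 had 6.72 and 6.50 in GKA islets, against 6.21 and 6.04 in vehicle islets. The GKA arrays were the higher ones, by 0.49 ± 0.14 (SE, n = 2 each), with a limma adjusted p of 0.0689. Atp5g2 had 6.62 and 6.34 in GKA islets, against 6.87 and 6.76 in vehicle islets. Here the GKA arrays were the lower ones, at a difference of -0.34 with a limma adjusted p of 0.156. Atp5g3 had 5.98 and 5.72 in GKA islets, against 5.84 and 5.69 in vehicle islets, and its groups overlapped at a difference of 0.08. Atp5g1 and Atp5g2 were thus the members of the complex with the largest difference in each direction, and neither passed. Both passed with either normexp setting, and Atp5g1 also with an intensity trend. Atp5g2 also passed without scaling and with spike-in scaling, where 44.6% and 39.6% of all genes were called lower. With spike-in scaling Atp5g1 was at -0.11. Atp5b, the catalytic beta subunit, had 6.62 and 6.58 in GKA islets, against 6.51 and 6.41 in vehicle islets, a difference of 0.14.

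The 7 names that are no subunits had a median difference of -0.25. The GKA arrays lay below the vehicle arrays for 6 of the 7, where they did so for 33.5% of all genes. None of the 7 passed, where 17.1% of all tested genes were called. Atp5sl, which takes part in complex I assembly under its current symbol Dmac2, had the largest difference of the 7, with 1.43 and 1.42 in GKA islets, against 1.96 and 1.78 in vehicle islets. The difference was -0.44, with a limma adjusted p of 0.0654. Ndufaf1, an assembly factor of complex I, was the exception, at 0.17.

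Of the members, 24 had more than 1 kept probe. The probes of a gene pointed in opposite directions for Ndufb6, Atp5f1 and Atp5l. The widest range between probes was in Ndufb11, with differences from -0.64 to -0.11. The brighter probe, which represents the gene, did not pass, while the dimmer one, at -0.64, passed when each probe was tested on its own, with a limma adjusted p of 0.0331.

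The second comparison set the arrays of a group against each other, to show how far samples with the same treatment lay apart. Replicate 2 was below replicate 1 for 81 of 88 members in the GKA group and for 69 of 88 in the vehicle group, and for 66 in both. Over all 17178 genes it was below for 10031 in the GKA group and 9880 in the vehicle group. The median of replicate 2 minus replicate 1 was -0.18 for the members in GKA and -0.11 in vehicle, against -0.04 for all genes in each group. The members' median difference between the groups, -0.02, was smaller than either of these differences between arrays of 1 group.

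**Figure D3:**
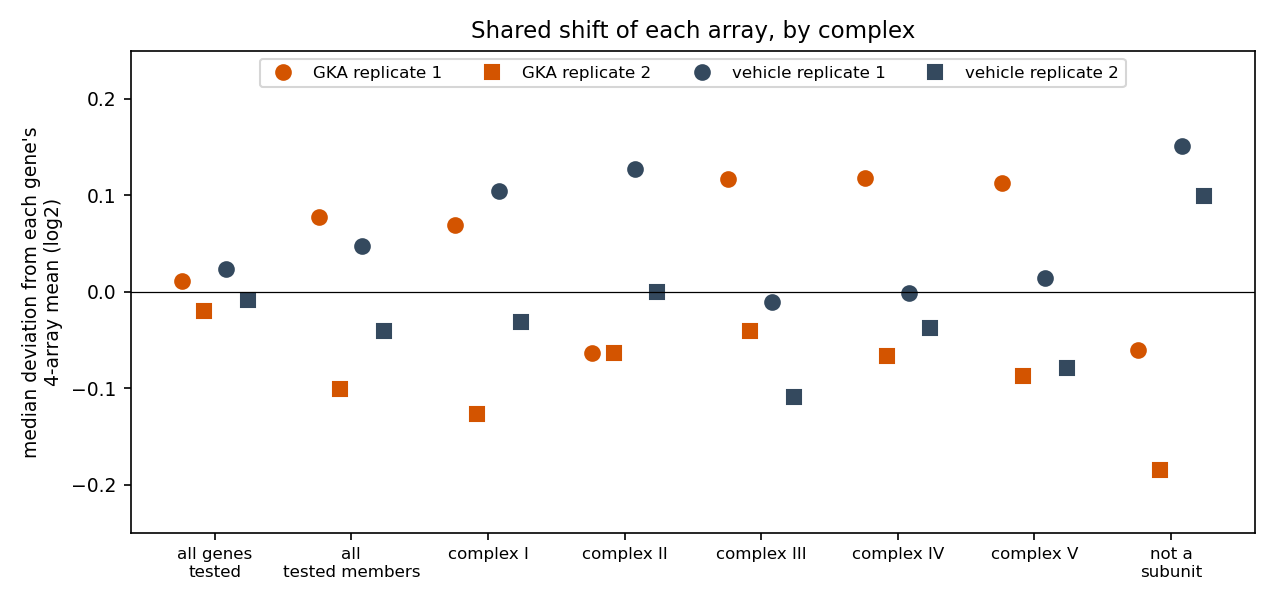
Median deviation of each complex's genes from each gene's mean over the 4 arrays (y axis, log2 units), for the GKA arrays on the left and the vehicle arrays on the right. For all members together the medians were 0.08 and -0.10 on the GKA arrays and 0.05 and -0.04 on the vehicle arrays, so the arrays of a group lie on opposite sides of 0.

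The 75th percentile of the intensity was 557 and 598 on the GKA arrays, against 751 and 755 on the vehicle arrays, and 59.7% to 63.5% of non-control probes were well above background. All arrays came from 1 slide and 1 scan, and GKA samples lay at positions of their own, so position on the slide and treatment cannot be told apart. Beta-cell markers were all kept, 10 of 10. Of these G6pc2, Pdx1 and Mafa rose, or 30%, where 9.11% of all tested genes were higher. Slc30a8, at -0.07, was the only one below 0. The summed beta-cell level relative to the 75th percentile was 1452 and 1420 on the GKA arrays, against 1163 and 1153 on the vehicle arrays. Ins1, Ins2 and Iapp had the highest levels and weigh most in that sum. The 6 alpha-cell markers summed to 550 and 498 in GKA islets, against 446 and 398 in vehicle islets. The 3 delta and PP cell markers summed to 742 and 707 in GKA islets, against 561 and 595 in vehicle islets. Marker sums depend on the scaling, since the 75th percentile was lower on the GKA arrays, and they were not computed without scaling. Of 11 acinar markers 4 were kept, with sums of 0.51 and 0.49 in GKA islets and 0.59 and 0.59 in vehicle islets, and Cpa1, Cpb1, Cela2a, Cela3b, Pnlip, Prss1 and Prss2 were not. Of 10 leukocyte markers 5 fell, or 50%, where 8.01% of all tested genes were lower. The list was not uniform: 3 markers differed upward without passing, Itgam by 0.41, Cd68 by 0.39 and Csf1r by 0.08. In whole islets fewer cells of a type and less RNA per cell cannot be told apart, and the part of these markers in the members' values was not tested.

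The direction of some differences given above depends on the scaling. Cox7a2l was lower in GKA and passed both without scaling and with spike-in scaling. Without scaling between arrays, the median difference of all genes was -0.40, that of the members was -0.40 too, and 48 of the 88 members were lower and none higher in GKA, or 54.5% of members against 48.9% of all genes called. Scaled to the spike-in controls, all genes had a median of -0.61 and the members one of -0.61. With that scaling 30 members were lower and none higher, or 34.1% of members against 41.6% of all genes called. Under both settings the members' median minus that of all genes stayed at -0.003, since these settings move whole arrays. In the authors' deposited table, whose ratios of GKA over control are not scaled between arrays, 112 of the 122 member probes had a ratio below 1, with a median of 0.757, against 0.841 for all non-control probes, which include dim ones. Among probes kept for the test, the median ratio in the authors' deposited table was 0.755 for the 118 member probes, against 0.758 for all 22139 named probes. Spike-in scaling and no scaling shift all genes of an array by the same amount, so a gene's difference relative to all genes cannot change. That Cycs, Ndufc2 and Ndufa1 stayed above and Cox7a2l below the median of all genes was therefore fixed in advance.

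**Figure D4:**
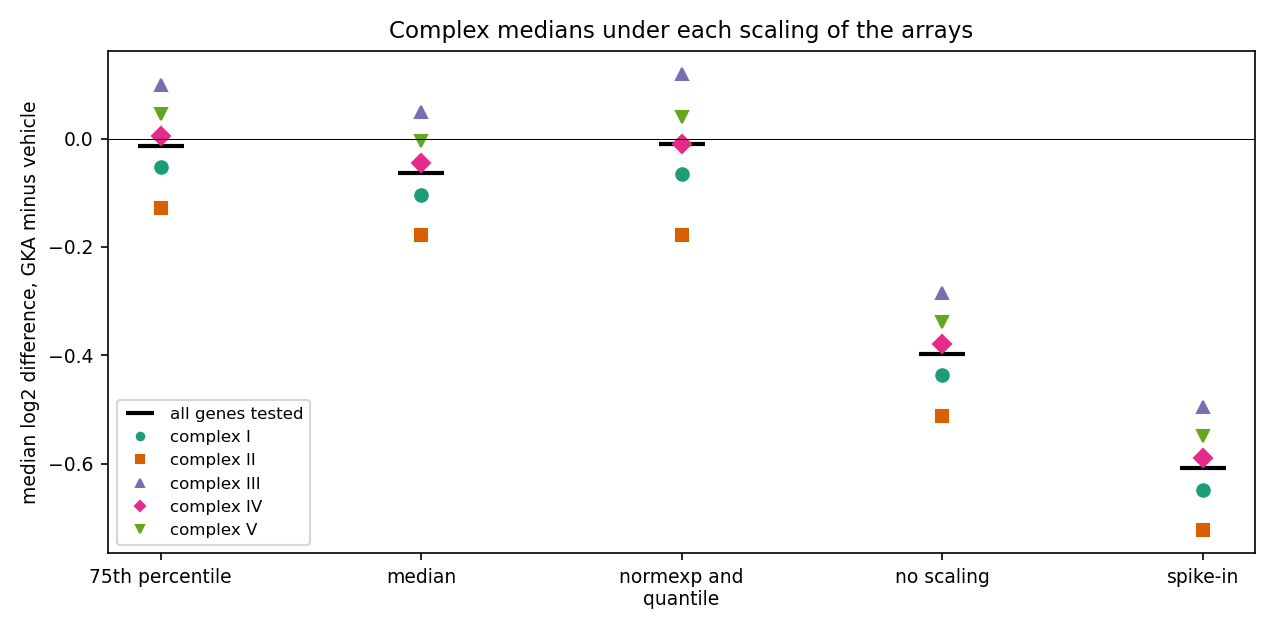
Median log2 difference between GKA and vehicle (y axis) for each complex and for all genes under 5 ways of scaling the arrays (x axis). The medians of the complexes and of all genes move down together without scaling, to -0.40 for all genes, and with spike-in scaling, to -0.61.

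The third comparison set the nuclear subunits beside other genes of mitochondrial energy metabolism. The 13 subunits encoded by mitochondrial DNA had 12 names on the array, and all 12 were tested. None passed, where 17.1% of all tested genes were called. The median difference was 0.15. Both GKA arrays lay above both vehicle arrays for 10 of the 12 and below for none. Among all genes GKA lay above for 32.4%. mt-Co1, the catalytic subunit of complex IV, had 8.63 and 8.53 in GKA islets, against 8.44 and 8.41 in vehicle islets, a difference of 0.16. mt-Co2, which takes electrons from cytochrome c, had 8.38 and 8.32 in GKA islets, against 8.14 and 8.10 in vehicle islets, a difference of 0.23. This direction depends on the scaling: without it the differences were -0.23 for mt-Co1 and -0.15 for mt-Co2, and with normexp and quantile normalisation they were -0.11 and -0.14.

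Among genes that feed electrons and carbon into the chain, Fh1, Coq10b, Gpd2 and Pdk3 rose and Idh2 and Coq4 fell. Of 15 tested genes of ubiquinone synthesis and other electron donors, 2 rose and 1 fell, with a median of -0.01. That was 20% of the list, near the 17.1% of all tested genes called. Gpd2, the mitochondrial glycerol 3-phosphate dehydrogenase that brings electrons from glycolysis to ubiquinone, had 1.27 and 1.19 in GKA islets, against 0.27 and 0.30 in vehicle islets. The groups were far apart, at 0.95 ± 0.11 (SE, n = 2 each), or 1.93-fold, with a limma adjusted p of 0.0113. Coq10b, a ubiquinone-binding protein, had -0.19 and 0.13 in GKA islets, against -1.22 and -1.04 in vehicle islets. The difference was 1.10 ± 0.16 (SE, n = 2 each), or 2.15-fold, with a limma adjusted p of 0.0153. Coq4, needed for ubiquinone synthesis, fell by 0.52 on the log2 scale, with an adjusted p of 0.0407 in limma. Without either GKA array Gpd2 had limma adjusted p values of 0.059 and 0.056, Coq10b did not pass without GKA replicate 2 (0.068), and Coq4 did not pass without any 1 of the arrays (0.0757 to 0.175).

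Of 25 tested genes of pyruvate dehydrogenase and the citric acid cycle, 2 rose and 1 fell, with a median of 0.09. That was 12% of the list, against 17.1% of all tested genes called. Fh1, fumarate hydratase, had 5.4 and 4.98 in GKA islets, against 3.85 and 3.55 in vehicle islets. Both GKA arrays lay above both vehicle arrays, and the difference was 1.49 ± 0.19 (SE, n = 2 each), or 2.82-fold, with a limma adjusted p of 0.0125. A second kept probe of Fh1 differed by 1.53. Pdk3, a kinase that switches pyruvate dehydrogenase off, rose by 0.75, with a limma adjusted p of 0.0237. Idh2, the NADP-dependent isocitrate dehydrogenase of the mitochondrion, had 4.37 and 4.37 in GKA islets, against 5.44 and 5.04 in vehicle islets, and fell by 0.87 on the log2 scale with a limma adjusted p of 0.0286. Fh1 passed without each of the arrays in turn, with limma adjusted p values from 0.0123 to 0.0489. Pdk3 did not pass without GKA replicate 1 (0.102), GKA replicate 2 (0.0697) or vehicle replicate 1 (0.0602), nor Idh2 without GKA replicate 1 (0.107), GKA replicate 2 (0.114) or vehicle replicate 1 (0.0526).

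**Figure D5:**
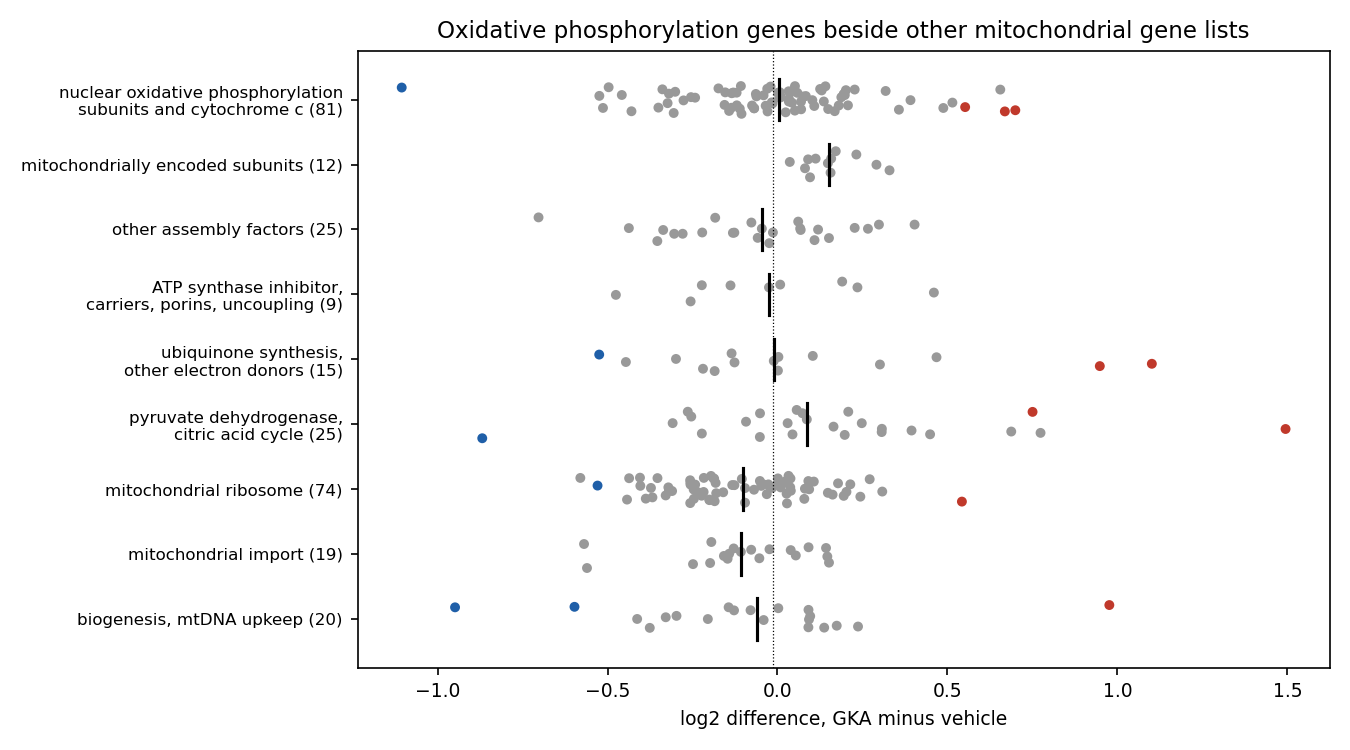
Log2 difference between GKA and vehicle (x axis) for each tested gene of the oxidative phosphorylation group and of 8 other mitochondrial lists (rows, with the number of genes in parentheses). Points are genes, bars the medians of the lists, and the dotted line the median of all genes. The medians run from -0.11 to 0.15, and the points farthest to the right are Fh1, Coq10b, Ppargc1a and Gpd2.

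Few genes of the machinery that builds mitochondria passed. Of 74 tested mitochondrial ribosomal protein genes, 1 rose and 1 fell, or 2.70%, against 17.1% of all tested genes called. The median of the list was -0.10. Mrps12 differed by 0.54 (limma adjusted p of 0.0404) and Mrpl48 by -0.53 (0.0406). Neither passed without any 1 of the arrays, at adjusted p values from 0.0772 to 0.158 for Mrps12 and from 0.0907 to 0.175 for Mrpl48. None of 25 assembly factors, 19 import genes or 9 genes of the ATP synthase inhibitor, carriers and porins passed, with medians of -0.05, -0.11 and -0.03. Among them Lrpprc, which keeps mitochondrial mRNAs stable, differed by 0.11 and Cox16, a complex IV assembly factor, by -0.05. Of the import genes, Tomm7, of the outer membrane translocase, differed by -0.11 and Timm8b, an intermembrane chaperone, by -0.20. Atpif1, the inhibitor of the ATP synthase, differed by 0.01 and Vdac1, the main porin, by -0.14.

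Of 20 tested genes of mitochondrial biogenesis and mitochondrial DNA upkeep, 1 rose and 2 fell, with a median of -0.06. That was 15% of the list, near the 17.1% of all tested genes called. Ppargc1a, the coactivator PGC-1alpha, had -2.75 and -3.34 in GKA islets, against -3.89 and -4.16 in vehicle islets, and rose by 0.98 ± 0.23 (SE, n = 2 each) with a limma adjusted p of 0.0437. Nrf1, the factor whose site was searched above, had 0.07 and 0.03 in GKA islets, against 0.70 and 0.59 in vehicle islets, and fell by 0.60 on the log2 scale with a limma adjusted p of 0.0289. Its 3 kept probes ranged from -1.28 to -0.60. Ppargc1b, the related coactivator PGC-1beta, was dim on both GKA arrays, not well above background there, so only a bound holds, at least 1.02-fold lower in GKA, beside a limma adjusted p of 0.0292. With normexp background correction its difference was 0.13. Ppargc1a did not pass without any 1 of the arrays (limma adjusted p from 0.0503 to 0.118), nor did Nrf1 without GKA replicate 1 (0.108), GKA replicate 2 (0.128) or vehicle replicate 1 (0.0852).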

How the data were processed

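Expression was measured on 4 one-colour Agilent arrays, 2 of GKA and 2 of vehicle islets. The intensity of each spot is on a linear scale, background-subtracted and detrended but not scaled between arrays; it was made with Agilent Feature Extraction, version 10.7.3.1 per the file headers and 9.1 per the submitters' processing notes. The authors also deposited a table with an intensity of each group and a ratio, GKA over control, for every probe. Its group values were the array means, to within 0.1%, for 39030 of 39030 single-spot probes, and 39483 of 39483 ratios equalled the quotient of the group values.

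From these, log2 values relative to the array's own 75th percentile were computed; control spots were left out, as were spots with a non-uniformity or population outlier mark. A probe was kept if either group had it well above background on both its arrays (22139 named probes), and each gene was read from its kept probe with the highest mean signal. GKA and vehicle were compared with limma 3.58.1 (lmFit and eBayes, two-sided) in R 4.3.3, with Benjamini-Hochberg adjustment over 17178 genes, 2 residual degrees of freedom and a prior worth 3.33 more; the smallest two-sided p of an exact permutation is 0.333 here. Precision is limited by the number of arrays. The test was tried on simulated data with 200 of 17178 genes changed, where it called 39.0% of 2-fold and 93.2% of 4-fold changes. More genes were called in the real data, so these shares need not hold there.

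The members, the lists and the motifs were chosen with earlier results of these data known, so lists are described by counts and medians and not tested. Named with values on each array were members that passed, the 2 with the brightest probes and the largest differences in each complex, the isoforms, the Atp5g genes, Cycs and Cyc1; of the other lists, up to 3 passing genes per direction, or the 2 with the brightest probes. Any further gene was picked as an example with its values known. Symbols are those of the array's design; all 88 tested members matched a current symbol in a RefSeq table of assembly GRCm38.p6, which also gave the promoters. Probe coordinates are on mm9, per the authors' deposited table. For a gene dim on all arrays of a group, the bound sets the brighter group's mean against a floor, which on each dim array is the lowest value of any probe above background, or the gene's value if that is higher. The alternatives were median, spike-in and no scaling, normexp correction with an offset of 50 on the median rather than the mean spot signal, other probe and filter rules, an intensity trend, a replicate block and each array left out.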

Additional observations from a re-analysis of the deposited data

How the results depend on the processing

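Among the members, Cox7a2l passed under all settings except with no filter on dim probes (limma adjusted p of 0.0849) and without GKA replicate 2. With no filter, 0 members passed in limma, 10 had an unadjusted p under 0.05, and over all genes 156 were higher and 67 lower. An intensity trend gave 2094 genes lower, with 5 members higher and 6 lower. With every probe on its own, 4 member probes were lower, where 7.99% of all kept probes were lower. Median scaling gave 5 members lower, where 10.8% of all genes were lower, and a median of all genes of -0.064. The stricter filter on all arrays gave 3 members lower, where 9.67% of all genes were lower. Normexp with the 75th percentile gave 2990 genes higher, 7 members higher and 10 lower, a median of all genes of 0.060 and one of -0.21 for complex II. Normexp with quantile normalisation gave 6 members higher and 9 lower, where 11.6% of all genes were higher and 11.9% lower. Its median replicate difference was -0.056 in GKA. No scaling gave 750 genes higher and 7654 lower, 0 members higher and 48 lower; the medians were -0.40 for the members and for all genes, -0.44, -0.51, -0.28, -0.38 and -0.34 for complexes I to V, and -0.63 for the names that are no subunits. Spike-in scaling gave 342 genes higher and 6805 lower, 0 members higher and 30 lower; the medians were -0.61 for the members and for all genes, -0.65, -0.72, -0.50, -0.59 and -0.55 for complexes I to V and -0.85 for the names that are no subunits, and the median replicate differences were -0.38 in GKA and 0.27 in vehicle. The replicate numbers are shared by the groups, but same-numbered arrays deviated together by only r = 0.0751 across 17178 genes, which are not independent replicates, and by r = 0.177 across the 88 members, of which 66 had replicate 2 below replicate 1 in both groups, against 6170 of all genes. With 2 pairs and no label that ties same-numbered samples, the block was kept as an alternative: with a replicate block 1014 genes were higher and 902 lower, and 1 member was higher, with Cycs and Cox7a2l passing and Ndufa1 and Ndufc2 at limma adjusted p values of 0.0552 and 0.0545.

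Leaving out each array in turn, with the genes and probes held, gave 315 to 1523 genes higher and 206 to 1312 lower, 0 to 2 members higher and 0 to 1 lower; where 1 array was left in a group, it was assumed to vary like the other group. The medians then ran from -0.075 to 0.13 for complex IV and from -0.31 to -0.18 for the names that are no subunits. Single genes changed sign over the arrays left out: Atp5g3 (-0.046 to 0.21), Cox4i1 (-0.18 to 0.045), Cox6a1 (-0.19 to 0.071), Cox6b1 (-0.18 to 0.19), Cox7a2 (-0.26 to 0.0034), Ndufv3 (-0.026 to 0.23), Atpif1 (-0.12 to 0.13), Lrpprc (-0.031 to 0.25), Tomm7 (-0.25 to 0.031) and Vdac1 (-0.30 to 0.028). The mean of a gene's probes turned Cox16 to 0.11. Median scaling turned Cox6b1 to -0.046 and Atpif1 to -0.043. Normexp with the 75th percentile turned Cox6b1 to -0.075, Atpif1 to -0.047 and Ppargc1b to 0.13, and with quantile normalisation Cox6b1 to -0.0093, Atpif1 to -0.0018, mt-Co1 to -0.11 and mt-Co2 to -0.14. No scaling turned Atp5b to -0.24, Atp5g3 to -0.30, Cox4i2 to -0.28, Cox6b1 to -0.38, Cox6b2 to -0.027, Ndufa13 to -0.25, Ndufv3 to -0.28, Sdhc to -0.18, Uqcrh to -0.18, Uqcrq to -0.19, Atpif1 to -0.38, Lrpprc to -0.28, mt-Co1 to -0.23 and mt-Co2 to -0.15. Spike-in scaling turned Atp5b to -0.45, Atp5g1 to -0.11, Atp5g3 to -0.51, Cox4i2 to -0.49, Cox6b1 to -0.59, Cox6b2 to -0.24, Ndufa1 to -0.044, Ndufa13 to -0.46, Ndufa4 to -0.20, Ndufa4l2 to -0.081, Ndufv3 to -0.49, Sdhc to -0.39, Uqcrh to -0.39, Uqcrq to -0.40, Atpif1 to -0.59, Lrpprc to -0.49, Mrps12 to -0.053, mt-Co1 to -0.44 and mt-Co2 to -0.36. The cause of these changes was not tested beyond what each setting alters. With 2 arrays a group, some differences larger than the half-width of their own 95% interval, such as those of Ndufs7, Atp5g1 and Cox7a1, did not pass after adjustment.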
